A study of Mus musculus with 109 samples.

Results

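The genes described here are Sarm1, the NAD+ hydrolase that executes axon degeneration, and 8 genes around it in NAD+ metabolism and axon maintenance. They were chosen by their Ensembl identifiers as 9 rows of the 37315 in the deposited count table. Those that use NAD+ are Sarm1 (ENSMUSG00000050132), Cd38 (ENSMUSG00000029084) and Bst1 (ENSMUSG00000029082). Those that make it are Nampt (ENSMUSG00000020572), Nmnat1 (ENSMUSG00000028992), Nmnat2 (ENSMUSG00000042751), Nmnat3 (ENSMUSG00000032456) and Nadsyn1 (ENSMUSG00000031090). Stmn2 (ENSMUSG00000027500) encodes stathmin-2, a tubulin-binding protein of growing and regenerating axons. All 9 genes passed the filter on low counts in every model fitted.

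NAD+ is rebuilt mainly from nicotinamide, which NAMPT converts to nicotinamide mononucleotide (NMN), and the NMNAT enzymes then convert NMN to NAD+. NMNAT1 is nuclear, NMNAT3 is mostly mitochondrial, and NMNAT2 is a short-lived enzyme carried along axons. When NMNAT2 is lost, NMN accumulates while NAD+ falls, and the changed ratio opens the NADase activity of SARM1, which destroys the remaining NAD+ of the axon. CD38 and BST1 are surface enzymes of immune and stromal cells that also cleave NAD+. In the retina this pathway is studied in retinal ganglion cells (RGCs), the neurons whose axons form the optic nerve.

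The series holds RNA-seq of 109 retinas, each taken whole, from 64 mice aged 2 to 4 months, after intravitreal injection of PBS, IL1A (labelled IL1 where given alone), TNF or IL1A+TNF. C57BL/6J wild-type (WT) mice of batch 1 gave 31 retinas at day 2 after PBS, 8 after TNF, 9 after IL1A and 10 after IL1A+TNF. They also gave 7 PBS and 6 TNF retinas at day 14, and 6 PBS and 9 TNF retinas at day 35. Batch 2, all at day 2, held 5 PBS and 6 IL1A+TNF retinas of WT mice, and 6 PBS and 6 IL1A+TNF retinas of Sarm1-/- mice (labelled Sarm.KO). Every retina, controls included, came from an injected eye, and in 45 mice both eyes were sequenced. All Sarm1-/- retinas came from 1 line and from batch 2, so the line's genetic background and the deletion cannot be told apart.

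Total counts ranged from 30014757 to 79064488 (median 39374202). In 2 libraries, the left eyes of Sarm1-/- mice 61924 and 61926 after IL1A+TNF, the summed level of 12 RGC markers was 169 and 146 CPM (counts scaled to library size), against 349 to 788 in the other 4 retinas of that group. The right, PBS-injected eyes of the same mice had 797 and 797. Neutrophil markers, low in most PBS retinas of batch 1 (median sum 37.5 CPM, highest 175), had medians of 232 after IL1A and 278 after IL1A+TNF. They were at 1191 and 1107 in these 2 retinas. High sums were not confined to them: WT retinas of mice 60212 and 61719 reached 1047 and 1055 after IL1A+TNF. Summed lens markers varied between 0.806 and 5666 CPM among all retinas. Calls that rest on the 2 retinas are given with and without them.

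The promoters of the members that increased most after IL1A+TNF, Cd38 and Nampt, are printed here because both genes were called higher in the same comparison and their start regions differ in base composition. The sequences are the 250 bases before the RefSeq start of each gene (GRCm38.p6), read in the direction of transcription, with each CpG in capitals. The Cd38 window is chr5:43868559-43868808 on the plus strand and the Nampt window is chr12:32820085-32820334 on the plus strand.
Cd38: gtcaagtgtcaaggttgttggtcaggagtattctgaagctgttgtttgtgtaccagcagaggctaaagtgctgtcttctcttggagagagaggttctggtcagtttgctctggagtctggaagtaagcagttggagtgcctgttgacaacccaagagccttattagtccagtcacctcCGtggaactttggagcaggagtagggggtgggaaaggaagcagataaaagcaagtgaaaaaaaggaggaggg
Nampt: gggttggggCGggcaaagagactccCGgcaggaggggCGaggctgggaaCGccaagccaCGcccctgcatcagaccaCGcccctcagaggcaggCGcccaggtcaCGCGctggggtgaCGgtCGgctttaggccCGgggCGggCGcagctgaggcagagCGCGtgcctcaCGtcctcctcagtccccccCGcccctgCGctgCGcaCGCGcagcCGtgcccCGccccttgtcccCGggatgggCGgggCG
The Cd38 window held 1 CpG and 48.8% GC, and 7.9% of all 32851 RefSeq windows held fewer CpGs. The Nampt window held 27 CpGs and 75.6% GC, and 91.4% of windows held fewer. Across the members the counts were 13 for Sarm1, 15 for Nmnat2, 9 for Nmnat3 and 23 for Nadsyn1, with 23 and 24 in the 2 windows of Nmnat1, beside a median of 6 over all windows. Bst1 and Stmn2 had no entry. The 8 windows of 7 members, lengthened past the start to 300 bases, were searched on both strands for 5 motifs. These were the NF-kB motif, AP-1 (TGANTCA), the CRE (TGACGTCA), the interferon-gamma element GAS (TTCNNNGAA) and the interferon element ISRE. No window held any of the letters searched. Of all windows, 4.51% held the NF-kB motif, 7.81% AP-1, 1.79% the CRE, 8.3% GAS and 3.44% the ISRE.

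In PBS-injected WT retinas at day 2, batch 1, Sarm1 and Nampt were the most abundant members per kilobase of annotated exon. The length is the union of all annotated exons of a gene, not that of a transcript, and the order between genes depends on it. Levels are given as CPM scaled by trimmed mean of M values (TMM) and, between genes, per kilobase of exon, as mean ± SD over the 31 retinas. Sarm1 stood at 18.8 ± 1.86 CPM per kb and Nampt at 16.996 ± 1.54, and their ranges overlapped. Nmnat2 followed at 9.56 ± 0.840 and Stmn2 at 8.78 ± 1.04, again with overlapping ranges. Nmnat2, the axonal NMNAT, was thus 3.92 and 6.26 times the levels of nuclear Nmnat1 and mitochondrial Nmnat3. Bst1 was at 5.80 ± 0.899, and its highest retina (7.19) exceeded the lowest for Stmn2 (6.86). Nadsyn1, which makes NAD+ from its deamidated precursor, was at 2.69 ± 0.258 CPM per kb, Nmnat1 at 2.44 ± 0.247 and Nmnat3 at 1.53 ± 0.221. Cd38 was lowest, at 0.793 ± 0.313, with a range of 0.398 to 1.83 that overlapped that of Nmnat3 (1.14 to 1.98). Every neighbour in this order overlapped except Nampt with Nmnat2 and Bst1 with Nadsyn1.

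**Figure D1:**
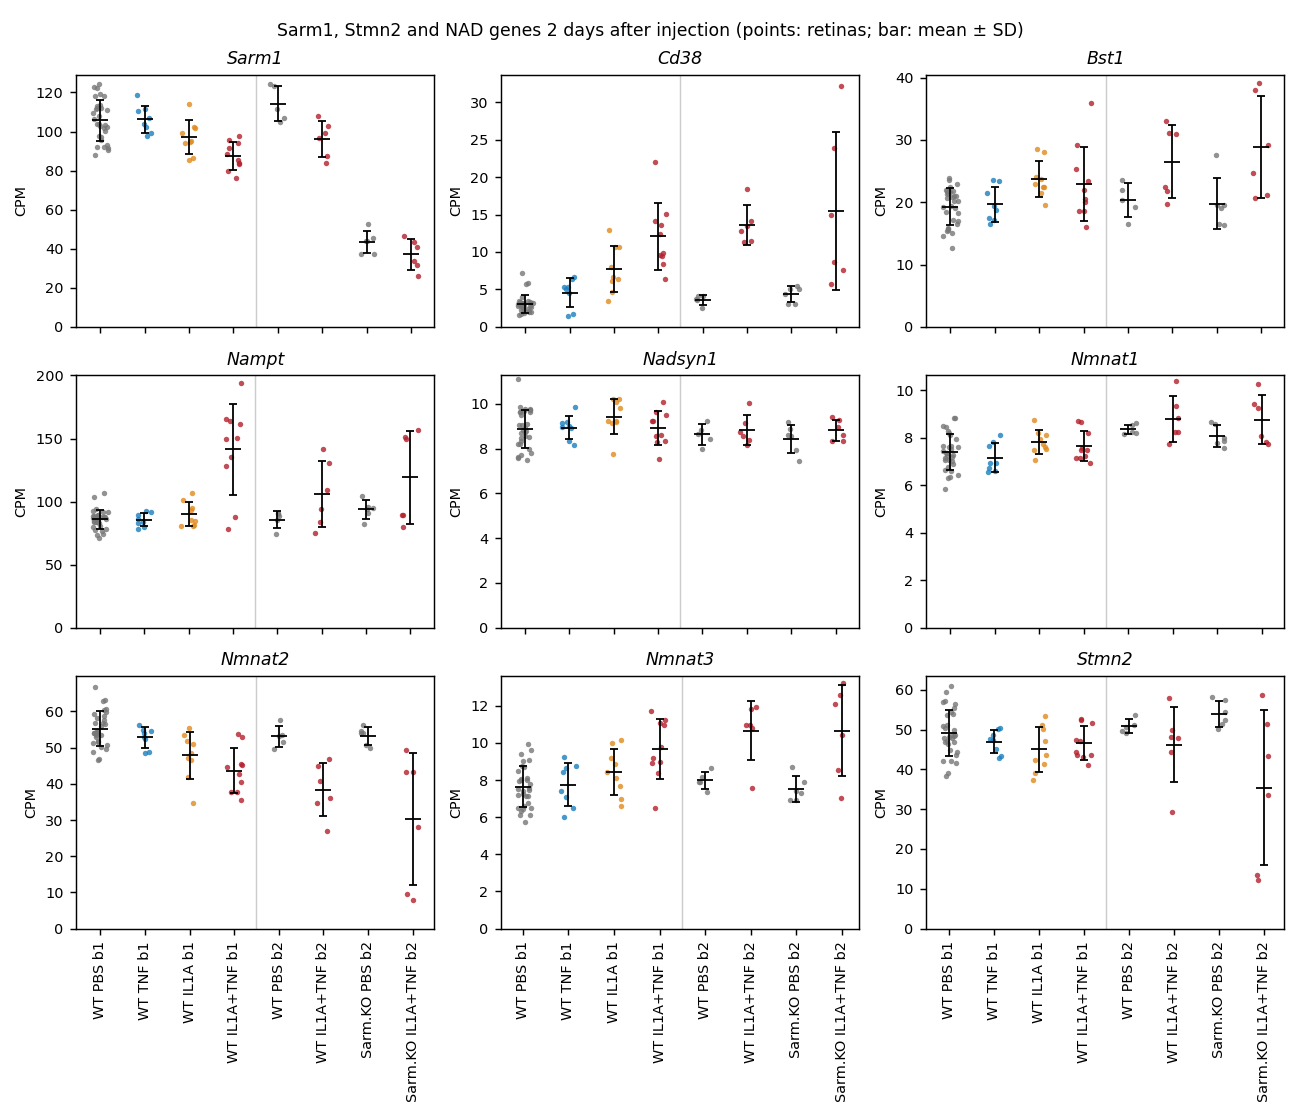
TMM-scaled CPM of the 9 genes in each retina (points) of the 8 day 2 groups, with the group mean and SD as bars and 0 at the foot of each axis. Cd38 was at 1.55 to 7.13 CPM after PBS and at 6.40 to 22.1 after IL1A+TNF in WT retinas of batch 1, and Sarm1 was lowest in both Sarm1-/- groups.

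IL1A+TNF changed 6 of the 9 members at day 2 in WT retinas of batch 1, 4 upward and 2 downward, at a false discovery rate (FDR) under 0.05 in limma. Among all 19548 genes tested 50.4% were called in this comparison, so a call was common among genes at large. Cd38 rose most, 3.84-fold, followed by Nampt at 1.60-fold, Nmnat3 at 1.26-fold and Bst1 at 1.17-fold. Nmnat2 and Sarm1 fell to 0.793 and 0.827 of the PBS level. Nmnat1, Nadsyn1 and Stmn2 were not called. Because whole retinas were sequenced, fewer cells of a type and less RNA per cell cannot be told apart.

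Among the enzymes that use NAD+, Cd38 ranged from 1.55 to 7.13 CPM (median 2.87) after PBS and from 6.40 to 22.1 CPM (median 11.1) after IL1A+TNF. All 10 treated retinas lay above the PBS mean, and the lowest of them fell within the top of the PBS range. The log2 fold change was 1.94 ± 0.17 (SE; limma FDR = 1.08e-14), and Cd38 was higher in the treated eye of 8 of 8 mice with both eyes sequenced. Markers of immune cells rose in the same comparison: 4 of 6 for microglia (1 fell; median sum 81.9 to 135 CPM), 5 of 6 for monocytes (36.0 to 62.2 CPM) and all 6 tested of 7 for neutrophils. Rod markers fell, 6 of 7, with the median sum going from 45569 to 25050 CPM. The part of these changes in the Cd38 result was not tested. Bst1, encoded next to Cd38 on chromosome 5, ranged from 12.6 to 23.8 CPM (median 20.2) after PBS and from 16.1 to 35.9 CPM (median 21.2) after IL1A+TNF. Its groups overlapped widely, and its log2 fold change was 0.23 ± 0.08 (limma FDR = 0.0182). The Bst1 call was lost without mouse 59734 (0.19, limma FDR = 0.0612), without mouse 60212 (0.17, limma FDR = 0.0701) and with mouse as a fixed block. The fixed block kept only mice with both eyes sequenced, so fewer retinas entered that fit. Sarm1 ranged from 87.9 to 124 CPM (median 104) after PBS and from 76.2 to 97.9 CPM (median 87.0) after IL1A+TNF. All 10 treated retinas were below the PBS mean, though the ranges overlapped, and the log2 fold change was -0.27 ± 0.05 (limma FDR = 1.04e-06).

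Among the enzymes that make NAD+, Nampt, the rate-limiting step of salvage, ranged from 70.9 to 107 CPM (median 86.4) after PBS and from 77.9 to 194 CPM (median 150) after IL1A+TNF. The treated retinas were not uniform: 8 of the 10 lay between 128 and 194 CPM, above every PBS retina, while the others, at 77.9 and 87.6, lay within the PBS range. The log2 fold change was 0.68 ± 0.07 (limma FDR = 1.12e-11), and Nampt was higher in the treated eye of 6 of 8 mice. Nmnat2 ranged from 46.7 to 66.8 CPM (median 54.3) after PBS and from 35.5 to 53.8 CPM (median 43.7) after IL1A+TNF. It was below the PBS mean in all 10 treated retinas and lower in the treated eye of 8 of 8 mice, with a log2 fold change of -0.33 ± 0.05 (limma FDR = 1.47e-07). Nmnat3 moved the opposite way, from a median of 7.52 CPM (5.72 to 9.92) to 9.48 CPM (6.47 to 11.7), with a log2 fold change of 0.34 ± 0.08 (limma FDR = 0.000141). The 3 NMNAT genes therefore had 3 different outcomes, since Nmnat1 had a log2 fold change of 0.05 ± 0.05 (limma FDR = 0.416), although it was called higher, at 0.12, when library totals replaced TMM. Nadsyn1 had one of 0.00 ± 0.05 (limma FDR = 0.964).

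Stmn2 was at 38.4 to 61.0 CPM (median 48.5) after PBS and at 41.1 to 52.7 CPM (median 45.7) after IL1A+TNF, and the treated range lay inside the PBS range. Its log2 fold change was -0.06 ± 0.05 (limma FDR = 0.378). The 12 RGC markers moved with the fall of Nmnat2: 11 of 12 were lower, and their summed level went from 679 to 953 CPM (median 816) after PBS to 611 to 774 CPM (median 667) after IL1A+TNF. Relative to the mean log2 level of these markers, Nmnat2 had a median of 0.68 after PBS and 0.65 after IL1A+TNF, and Stmn2 one of 0.54 and 0.76. Whether the RGC share of the tissue had a part in the Nmnat2 result was not tested.

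**Figure D2:**
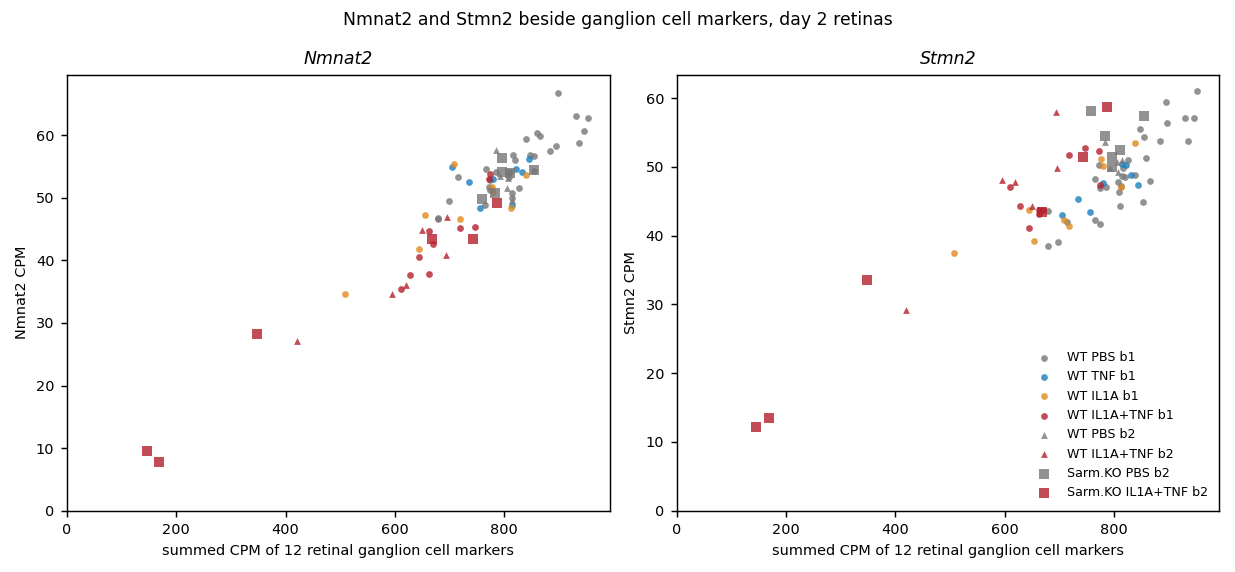
Nmnat2 and Stmn2 in CPM (vertical axes) against the summed CPM of 12 RGC markers (horizontal axes) in each day 2 retina, with colours for the groups. The 2 retinas at the lower left are the left eyes of Sarm1-/- mice 61924 and 61926, with Nmnat2 at 7.77 and 9.46 CPM.

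Given alone, IL1A changed 3 of the 9 members at day 2, where 21.4% of all genes were called. Cd38 ranged from 3.39 to 12.97 CPM (median 6.68) and Bst1 from 19.6 to 28.5 CPM (median 22.9), and all 9 IL1A retinas were above the PBS mean for both genes. The log2 fold changes were 1.34 ± 0.19 for Cd38 (limma FDR = 1.18e-07) and 0.32 ± 0.09 for Bst1 (limma FDR = 0.0049). Nmnat2 ranged from 34.7 to 55.5 CPM (median 48.4), below the PBS mean in 8 of 9 retinas, with a log2 fold change of -0.21 ± 0.05 (limma FDR = 0.00202). Of the 12 RGC markers 9 were called lower after IL1A, and their summed median was 718 CPM, against 816 after PBS. The retina with the lowest Nmnat2, the left eye of mouse 60637, also had the lowest sum, 508 CPM, and the part of the markers in this result was not tested. Nampt was at 80.4 to 107 CPM after IL1A, close to the PBS range, with a log2 fold change of 0.07 ± 0.08 (limma FDR = 0.594).

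Given alone, TNF called none of the 9 members at day 2 in limma, edgeR or DESeq2, with 1 member, Cd38, at an unadjusted p under 0.05 in each. Among all genes 0.655% were called in limma. After TNF, Cd38 was at 1.51 to 6.65 CPM (median 5.18), with a log2 fold change of 0.51 ± 0.23 (limma FDR = 0.571). Of the 8 TNF retinas 6 were above the PBS mean, and the others were at 1.51 and 1.76 CPM. The remaining members had log2 fold changes between -0.06 and 0.03.

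**Figure D3:**
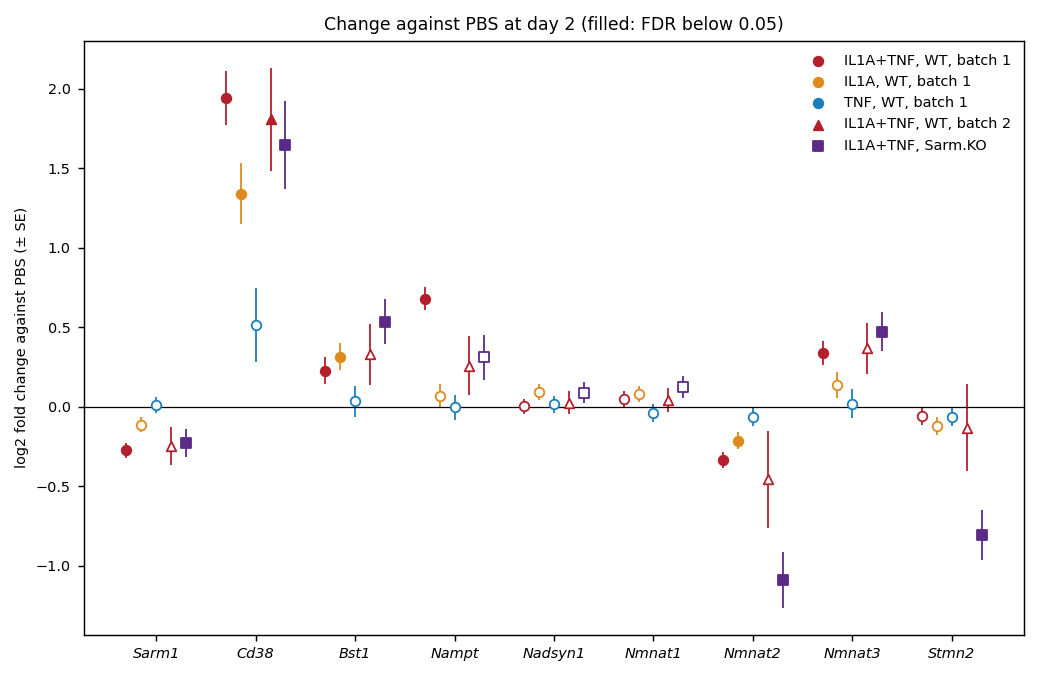
Log2 fold change against PBS at day 2 for each gene (points) with its SE (lines), in WT retinas after TNF, IL1A or IL1A+TNF and in Sarm1-/- retinas after IL1A+TNF. Filled points passed FDR under 0.05, and Nampt was 0.68 after IL1A+TNF in batch 1 against 0.07 after IL1A and 0.00 after TNF.

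The combination was then compared with each cytokine alone. IL1A+TNF against IL1A called 2 members, beside 10.1% of all genes: Nampt, with a log2 fold change of 0.61 ± 0.09 (limma FDR = 2.21e-05), and Cd38, with 0.60 ± 0.20 (limma FDR = 0.0460). The Cd38 call was lost in edgeR and DESeq2, and when any of 11 of 19 mice was left out, with FDR values up to 0.114. With mouse as a fixed block, in only the mice with both eyes sequenced, neither call held (Nampt 0.54, limma FDR = 0.219, and Cd38 0.56, limma FDR = 0.624). IL1A+TNF against TNF called 5 members, beside 39.0% of all genes. Cd38 (1.43), Nampt (0.68) and Nmnat3 (0.32) were higher on the log2 scale, and Sarm1 (-0.28) and Nmnat2 (-0.27) were lower. With mouse as a fixed block the calls for Nmnat3 (0.21) and Nmnat2 (-0.18) were lost. The test of the combination beyond the sum of the separate log2 effects called 1 member, Nampt, at 0.61 ± 0.12 (limma FDR = 0.00286), beside 3.60% of all genes. The call for Nampt was kept in edgeR and DESeq2 and without any 1 of 27 mice, and lost with mouse as a fixed block (0.53). For Cd38 the same term was 0.09 ± 0.31 (limma FDR = 0.922).

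Between the WT retinas of batch 2, IL1A+TNF against PBS called 1 of the 9 members, Cd38, beside 20.9% of all genes. The model held all retinas of batch 2, so its spread was estimated with the Sarm1-/- retinas included. Among them were the 2 retinas low in RGC markers, with Nmnat2 at 7.77 and 9.46 CPM. This contrast was not fitted without them. Cd38 stood at 2.51, 3.68 and 4.18 CPM (lowest, median, highest) in the 5 PBS retinas and at 11.3, 13.2 and 18.4 CPM in the 6 treated retinas. The groups did not overlap, and the log2 fold change was 1.81 ± 0.32 (limma FDR = 0.000559). Nmnat2 was at 49.6 to 57.7 CPM after PBS and at 27.05 to 46.9 CPM after IL1A+TNF, also without overlap. Its log2 change of -0.45 ± 0.30 did not pass in this model (limma FDR = 0.298), beside -0.33 ± 0.05 in batch 1. The retina at 27.05 CPM, the left eye of mouse 61721, had an RGC marker sum of 420 CPM, against 594 to 696 in the other 5 treated retinas and 785 to 815 after PBS, and the part of this in the Nmnat2 values was not tested. Nampt had a median of 88.4 CPM (74.2 to 91.0) after PBS and of 102 CPM (75.4 to 142) after IL1A+TNF, and its log2 change of 0.26 ± 0.18 did not pass either (limma FDR = 0.323). Nmnat3, at 0.37 ± 0.16 (limma FDR = 0.109), was called by edgeR and DESeq2, and in limma without mouse 61927 (0.45, limma FDR = 0.0392). With both batches in a model with a batch term, 6 members were called beside 54.8% of all genes, and Nampt was at 0.57 ± 0.08 (limma FDR = 1.29e-09). They were Cd38, Nampt, Nmnat3, Bst1, Nmnat2 and Sarm1.

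In Sarm1-/- retinas the deleted gene was reduced but still counted. After PBS, Sarm1 was at 37.1 to 52.9 CPM (median 43.9) in the 6 Sarm1-/- retinas and at 105 to 124 CPM (median 112) in the 5 WT retinas of the same batch, and no retina overlapped. In the model of the day 2 retinas of both batches, the log2 difference was -1.41 ± 0.08, or 0.375 of the WT level (limma FDR = 2.3e-24). Unless batch 2 alone is named, that model gave the Sarm1-/- and genotype results below, so WT retinas of batch 1 entered them too. After IL1A+TNF the Sarm1-/- retinas were at 25.97 to 46.5 CPM and the WT retinas of batch 2 at 83.9 to 108 CPM, with a log2 difference of -1.38 ± 0.08 (limma FDR = 7.26e-24). Counts per gene do not show which exons these reads covered.

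Sarm1 was the only member called between the genotypes after PBS, beside 0.0397% of all genes, which was 8 of 20154. The other 8 members had log2 differences between -0.12 and 0.29, all with limma FDR of at least 0.973. The largest was Nampt, at 0.29 ± 0.13 in the model of both batches. Its mean was 93.8 CPM in Sarm1-/- and 85.8 CPM in WT PBS retinas of batch 2. The log2 difference was 0.13 in batch 2 alone without the 2 retinas low in RGC markers. Those 2 retinas were treated eyes, so they were on neither side of this comparison. Of 12 other genes tested within 100 kb of Sarm1, 1 was called: Slc46a1, the proton-coupled folate transporter (chr11:78465697-78472059), which ends just before the Sarm1 locus (chr11:78472330-78497754, minus strand). Slc46a1 was at 16.5 CPM in Sarm1-/- and 28.5 CPM in WT PBS retinas, with a log2 difference of -0.84 ± 0.06 (limma FDR = 6.36e-18). Of the other 6 called genes, Vps53 (-0.28), Fam57a (-0.40) and Tlcd2 (1.05) also lie on chromosome 11, within 3.02 Mb of Sarm1. Dynlt1b (-0.73) and Tmem181b-ps (-0.80) are neighbours on chromosome 17, and ENSMUSG00000079733 (-0.87) had no entry in the annotation used.

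IL1A+TNF against PBS within Sarm1-/- mice called 6 of the 9 members, beside 43.5% of all genes. Cd38 was at 3.02 to 5.48 CPM (median 4.72) after PBS and at 5.68 to 32.2 CPM (median 11.8) after IL1A+TNF, with no overlap, and was higher in the treated eye of 6 of 6 mice. Its log2 fold change was 1.65 ± 0.28 (limma FDR = 2.57e-06), and 1.12 (limma FDR = 0.00202) without the 2 retinas low in RGC markers. Bst1 (0.54 ± 0.14) and Nmnat3 (0.47 ± 0.12) rose and Sarm1 (-0.23 ± 0.09) fell, with limma FDR of 0.00134, 0.00118 and 0.0279. Without the 2 retinas these became 0.29, 0.32 and -0.23, and none passed (limma FDR = 0.1865, 0.0863 and 0.0984). The Sarm1 call was also lost without mouse 61765 (-0.13, limma FDR = 0.257).

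Nmnat2 and Stmn2 spread most among the treated Sarm1-/- retinas. Nmnat2 was at 49.9 to 56.4 CPM after PBS, and at 7.77, 9.46, 28.2, 43.4, 43.4 and 49.2 CPM in the 6 treated retinas, all below the PBS range. Stmn2 was at 50.04 to 58.1 CPM after PBS, and at 12.1, 13.4, 33.5, 43.5, 51.4 and 58.8 CPM after IL1A+TNF. The lowest values of both genes were those of mice 61924 and 61926, and the next lowest was the retina with 349 CPM of RGC markers. The log2 fold changes were -1.09 ± 0.17 for Nmnat2 (limma FDR = 1.24e-06) and -0.81 ± 0.16 for Stmn2 (limma FDR = 2.96e-05). Without the 2 retinas Nmnat2 was at -0.42 and still called (limma FDR = 0.00431), while Stmn2 was at -0.25 and not called (limma FDR = 0.116). Relative to the mean log2 level of the RGC markers, Nmnat2 was at 0.50 to 1.14 in the treated retinas, against 0.60 to 0.73 after PBS. For Stmn2 these ranges were 0.62 to 1.39 and 0.55 to 0.88.

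Nampt in treated Sarm1-/- retinas fell into separate ranges by sex, at 150 to 157 CPM in the 3 females and 79.6 to 89.3 CPM in the 3 males, against 82.4 to 104 CPM after PBS. Cd38 divided in the same way, at 14.9 to 32.2 CPM in females and 5.68 to 8.65 CPM in males. The 3 females were also the 3 retinas with the lowest RGC marker sums and the highest neutrophil marker sums (463 to 1191 CPM, against 144 to 360 in the males). Sex and the extent of these marker changes cannot be told apart here. In WT retinas after IL1A+TNF, Nampt overlapped between the sexes in batch 1 (77.9 to 166 CPM in 6 females, 87.6 to 194 in 4 males) and in batch 2 (83.9 to 130 CPM in 3 females, 75.4 to 142 in 3 males). Cd38 overlapped in batch 1 (6.40 to 22.1 CPM in females, 8.45 to 15.01 in males) but not in batch 2 (13.5 to 18.4 CPM in females, 11.3 to 12.8 in males). The log2 fold change of Nampt over all 6 Sarm1-/- retinas was 0.31 ± 0.14 (limma FDR = 0.0679), and it was 0.07 (limma FDR = 0.803) without the 2 retinas. Nampt was called by edgeR, by DESeq2, with library totals as the scale, and in limma without any 1 of the 3 males (0.37 to 0.43).

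Whether Sarm1 deletion altered the response was asked with a genotype by treatment term, which called 2 members, beside 8.75% of all genes. Both were lower: Nmnat2 at -0.72 ± 0.20 (limma FDR = 0.0173) and Stmn2 at -0.73 ± 0.18 (limma FDR = 0.0116). Without the 2 retinas low in RGC markers the terms were -0.04 (limma FDR = 0.924) and -0.16 (limma FDR = 0.597), and no member was called. Neither edgeR nor DESeq2 called a member for this term, with 2 at an unadjusted p under 0.05 in each, and neither call held in batch 2 alone. Leaving out mouse 61924 lost both calls (-0.41 and -0.54), as did leaving out mouse 61926 (-0.48 and -0.51). Of the RGC markers, 10 of 12 were called lower in the same term. For Cd38, Nampt, Bst1 and Nmnat3 the terms were -0.25 ± 0.32, -0.26 ± 0.16, 0.27 ± 0.16 and 0.12 ± 0.14, with limma FDR between 0.328 and 0.687. The WT side of these terms held both batches, and the batch term does not remove a response that differs between batches. Nampt changed by 0.68 in WT retinas of batch 1 and by 0.26 in those of batch 2. In Sarm1-/- retinas, all of batch 2, it changed by 0.31, so its term of -0.26 is not a difference within batch 2.

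Treated Sarm1-/- retinas compared directly with treated WT retinas of both batches gave 3 called members, beside 14.8% of all genes. These were Sarm1, Nmnat2 at -0.65 ± 0.16 (limma FDR = 0.00578) and Stmn2 at -0.59 ± 0.15 (limma FDR = 0.00528). Without the 2 retinas Nmnat2 was at 0.03 and Stmn2 at -0.03, and Sarm1 was the 1 member still called. Of the 12 tested neighbours of Sarm1, Slc46a1 was lower (-0.58 ± 0.06) and Tmem97, a sterol-binding membrane protein, was higher (0.27 ± 0.08).

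With time after PBS injection, 6 members differed among days 2, 14 and 35 in the F test, beside 35.9% of all genes. Cd38 had medians of 2.87, 1.40 and 0.852 CPM on these days, and its highest retina at day 35 (1.05 CPM) was below every retina at day 2. Its log2 difference from day 2 was -1.14 ± 0.24 at day 14 (limma FDR = 0.000529) and -1.77 ± 0.29 at day 35 (limma FDR = 7.74e-06). Bst1 had medians of 20.2, 16.9 and 13.1 CPM, and Nmnat3 of 7.52, 7.66 and 5.87 CPM. At day 35 their log2 differences from day 2 were -0.51 ± 0.11 (limma FDR = 0.000197) and -0.50 ± 0.10 (limma FDR = 0.000189). Sarm1 (0.18 ± 0.06) and Nmnat2 (0.14 ± 0.05) were higher at day 35 and Nampt (-0.15 ± 0.05) was lower, with limma FDR of 0.0134, 0.04125 and 0.0277. Summed microglia markers had medians of 81.9, 51.0 and 40.5 CPM over the same days, RGC markers of 816, 914 and 994 CPM, and neutrophil markers of 37.5, 18.3 and 21.3 CPM. The part of these in the members' time course was not tested, and a mouse's age and the days since injection cannot be told apart.

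**Figure D4:**
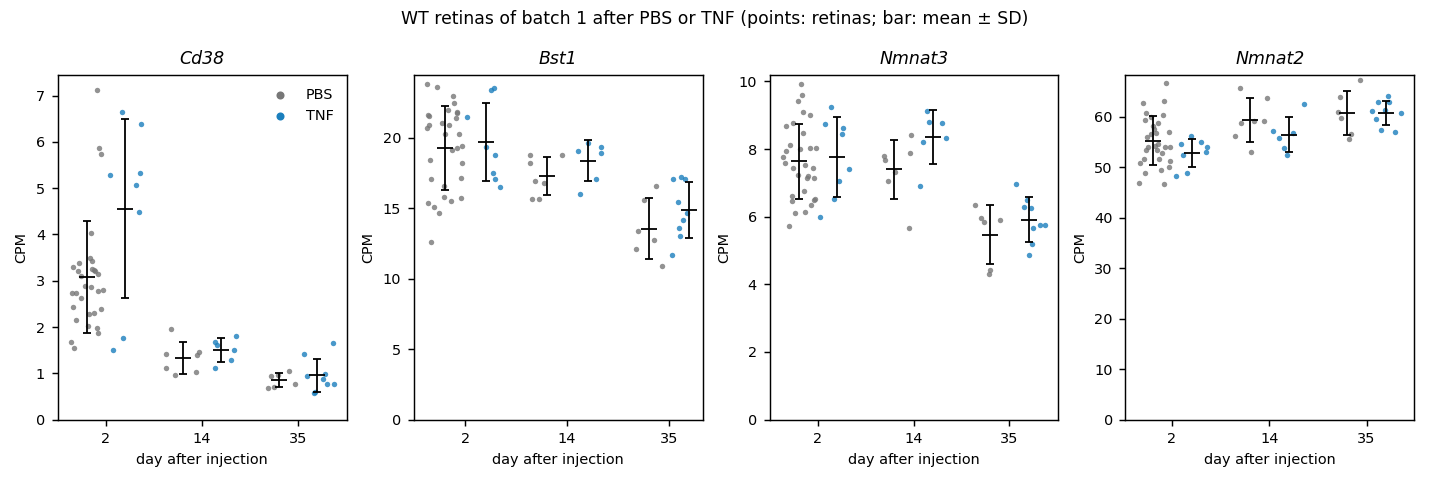
CPM of Cd38, Bst1, Nmnat3 and Nmnat2 at days 2, 14 and 35 in WT retinas of batch 1 after PBS (grey) or TNF (blue), with points for retinas and bars for mean and SD. Median Cd38 after PBS went from 2.87 CPM at day 2 to 0.852 CPM at day 35, and no gene shown was called between TNF and PBS on any day.

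TNF against PBS called no member at day 14 or day 35 in limma, edgeR or DESeq2, and 0% of all genes on either day. At an unadjusted p under 0.05, limma had 838 of 18023 genes at day 14 and 871 of 17821 at day 35. Those at day 14 included 2 members, Nmnat3 (0.22 ± 0.09) and Stmn2 (-0.10 ± 0.05), both with limma FDR = 0.888, and edgeR and DESeq2 had none. Nmnat3 at day 14 was at 5.66 to 8.41 CPM (median 7.66) after PBS and at 6.89 to 9.12 CPM (median 8.54) after TNF, and the groups overlapped. At day 35 no member was under 0.05 in any of the 3 tools. Bst1 there was higher in the TNF eye of 6 of 6 mice, by 0.03 to 0.15 on the log2 scale, with a log2 fold change of 0.13 ± 0.09 over all retinas (limma FDR = 0.889).

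The wider pathway after IL1A+TNF in batch 1 is given by lists of named genes, with the median log2 change over all genes at -0.02 and 50.4% of all genes called (4874 higher and 4978 lower of 19548), the share against which the counts are to be read. Of 12 genes of NAD+ synthesis, 5 were higher and 2 lower (median 0.03). Beyond the members these were Nadk (0.44 ± 0.04), which makes NADP+, Naprt (0.57 ± 0.08), which starts NAD+ synthesis from nicotinic acid, and Slc25a51 (0.15 ± 0.03), the mitochondrial NAD+ carrier, with the mitochondrial kinase Nadk2 lower (-0.42 ± 0.05). Of 8 tested genes of the kynurenine route from tryptophan, 2 were higher (median -0.01), Kmo (1.87 ± 0.21) and Kynu (1.02 ± 0.18), and both averaged under 2 CPM. Both genes of nicotinamide clearance were higher (median 1.19), the methyltransferase Nnmt (1.33 ± 0.34) at under 1 CPM, and the oxidase Aox1 (1.06 ± 0.10).

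Of 25 genes whose products use NAD+, 13 were higher and 6 lower (median 0.10), beside 50.4% of all genes called. Beyond the members, the largest rises in this list were those of ADP-ribosyltransferase family genes, Parp10 (2.82 ± 0.26), Parp9 (2.58 ± 0.26), Parp14 (2.24 ± 0.20), Parp12 (2.09 ± 0.19) and Parp3 (1.01 ± 0.11). Parp10 averaged 14.4 CPM after PBS and 119 CPM after IL1A+TNF. The first 4 of these also exceeded the sum of the separate effects, by 1.63 ± 0.48, 1.58 ± 0.48, 1.33 ± 0.36 and 1.36 ± 0.34 on the log2 scale. In that test 3.60% of all genes were called. Of 5 genes of TIR-domain adaptors, Sarm1 among them, 4 were higher and Sarm1 was the 1 that was lower (median 0.62). They included Ticam2 (1.80 ± 0.22), Myd88 (1.15 ± 0.12), the adaptor of IL1 receptors, and Tirap (0.62 ± 0.09).

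Of 17 genes that regulate axon degeneration, 3 were higher and 10 lower (median -0.15), beside the same 50.4% of all genes. The stress kinases Map3k12 (-0.28 ± 0.03), which encodes DLK, and Mapk9 (-0.21 ± 0.03), which encodes JNK2, fell, and the calpains Capn1 (0.59 ± 0.06) and Capn2 (0.47 ± 0.05) rose. Of the 4 stathmins, Stmn1 (-0.33 ± 0.05) and Stmn3 (-0.27 ± 0.06) were lower and Stmn4 (0.13 ± 0.05) was higher (median -0.16), while Stmn2 was not called. After IL1A alone, Kmo (2.01 ± 0.22), Ticam2 (1.41 ± 0.24), Nnmt (1.14 ± 0.36), Parp10 (1.05 ± 0.29) and Kynu (1.01 ± 0.19) were higher. After TNF alone no gene of the 7 lists was called.

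The genes whose log2 CPM followed each member most closely over the 58 WT day 2 retinas of batch 1 were found among 14953 genes by Pearson's r, as a description. These retinas share treatment groups, so r includes the treatment response. Cd38 was nearest to Arpc1b (0.970), Ifi30 (0.964) and Anxa3 (0.963), and Nampt to Amotl2 (0.946), Ifih1 (0.946) and Ogfr (0.946). Nmnat2 was nearest to Atp1b1 (0.910), Fgf1 (0.908) and Sparcl1 (0.908), Stmn2 to Bex2 (0.872), Tagln3 (0.863) and Wbp2 (0.849), and Sarm1 to Sugp2 (0.862), Man2a2 (0.862) and Camta2 (0.856). Nmnat3 was nearest to Parp4 (0.800), itself a gene that uses NAD+. For Bst1, Nadsyn1 and Nmnat1 the highest values were lower, at 0.658 with Lrig1, 0.573 with Neil1 and 0.490 with Ccdc43.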

How the data were processed

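PolyA RNA of whole retinas was sequenced as 150-base read pairs. Per the labels and the study's methods, the authors aligned reads to mm10 with STAR 2.7.9a and counted them per gene with featureCounts of Subread 2.0.1, and the deposited table holds these raw counts. The annotation release and the strand setting of the counting are not given in the sources used here. Reads of overlapping genes on the other strand (Fbxl5 with Bst1, Tmem274 with Nmnat1, Gm28960 with Nmnat2, Gm16015 with Cd38) therefore cannot be told apart. Gdap10 overlaps Nampt, Gm16014 overlaps Cd38 and Gm28530 overlaps Nmnat3 on the same strand, where a strand setting does not separate reads. Symbols and exon lengths for 35449 of 37315 genes came from GENCODE M21 on GRCm38. The table's sample sheet equalled the labels for all 109 retinas.

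Groups, sexes, batches and days came from the labels. Counts were analysed in R 4.3.3 with limma 3.58.1 and edgeR 4.0.16. Genes were kept by filterByExpr (minimum count 10, minimum total 15, proportion 0.7, large groups from 10), scaled by TMM, and fitted with voom and duplicateCorrelation (2 rounds, mouse as the block), with a sex term and, across batches, a batch term. P-values were adjusted by Benjamini-Hochberg over all genes tested, and a call is FDR under 0.05. Contrasts with Sarm1-/- retinas came from a model of the day 2 retinas of both batches. The WT contrast of batch 2 came from a model of all retinas of that batch. Days 2, 14 and 35 after PBS were compared by an F test without the mouse block. Only 1 mouse gave 2 PBS retinas, both at day 14, and these were counted as separate. The test of the combination subtracts the separate log2 changes after IL1A and TNF from that after both. Retinas of 1 mouse are paired as eyes of the same animal. In the 45 mice with both eyes the median correlation of the eyes' deviations from their group means was 0.081 (-0.243 to 0.336). No member call changed without the block.

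The named genes were the 9 members, list genes called with a log2 fold change of at least 1 or among the 4 smallest FDR values of a list, genes within 100 kb of Sarm1, and the 3 genes nearest each member by correlation (average of at least 1 CPM). The members and lists were chosen with earlier results of these data known. The lists cover NAD+ synthesis, the kynurenine route, NAD+ use, nicotinamide clearance, axon degeneration regulators, stathmins and TIR adaptors, beside cell type markers. Alternatives were edgeR's quasi-likelihood test, DESeq2 1.42.0, other filters and scalings, no sex term, no block, mouse as a fixed block and batch 2 alone. The fixed block used only mice with both eyes sequenced and no sex term, so its lost calls cannot be put down to the block alone. Mice with a treated eye of the comparison were also left out in turn, and in the genotype models only mice of batch 2. Leaving out the 2 retinas low in RGC markers was added after seeing the data. The procedure was tested on simulated counts.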

Additional observations from a re-analysis of the deposited data

Results flagged for a closer look

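In 4 of 99 sets of a member's values in a group of retinas, 1 retina stood apart from the others by Dixon's criterion, which chance meets in about 1 of 20. Bst1 was at 27.5 CPM in the right eye of Sarm1-/- mouse 61564 after PBS, where the next highest was 19.6. Nadsyn1 was at 7.73 CPM in the right eye of WT mouse 60586 after IL1A, where the next lowest was 9.16. Nmnat3 was at 7.55 CPM in the right eye of WT mouse 61927 after IL1A+TNF in batch 2, where the next lowest was 10.8. Nmnat1 was at 9.11 CPM in the left eye of WT mouse 59708 at day 14 after TNF, where the next highest was 7.28.

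In 3 tests of a difference between effects a member was called. The effect of IL1A+TNF on Nampt exceeded the sum of the separate log2 effects by 0.61. The response of Nmnat2 to IL1A+TNF differed between Sarm1-/- and WT retinas by -0.72 on the log2 scale, and that of Stmn2 by -0.73. Both genotype differences were lost without the 2 retinas low in RGC markers, at -0.04 and -0.16, so they rest on those retinas.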

How the results depend on the processing

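Of 1295 values of single members under an alternative, 1240 kept their direction or stayed uncalled on the same side of the threshold, 40 lost their call, 11 gained one and 4 reversed. The 4 were Nmnat2 in genotype by treatment (0.084, batch 2 alone without the 2 retinas low in RGC markers), Nmnat2 between treated genotypes (0.093 there and 0.029 without the 2 retinas) and Stmn2 between treated genotypes (0.012 in batch 2 alone without them).

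The number of members called for genotype by treatment went from 2 to 0 in edgeR, in DESeq2, with mouse as a fixed replicate block, in batch 2 alone, without the 2 retinas, and under both of these together. Between treated genotypes it went from 3 to 1 in edgeR, in batch 2 alone, without the 2 retinas and under both together. In Sarm1-/- mice IL1A+TNF against PBS gave 2 in place of 6 without the 2 retinas, and 1 in batch 2 alone without them. IL1A+TNF against IL1A gave 1 in place of 2 in edgeR, in DESeq2 and with no filter beyond 1 count, and 0 with mouse as a fixed replicate block. With that block IL1A+TNF against TNF gave 3 in place of 5, and the combination beyond the sum gave 0 in place of 1. WT retinas of batch 2 gave 2 in place of 1 in edgeR and DESeq2. Omitting the replicate block changed the call of none of 126 member results.

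Mice with a treated eye of the comparison were left out in turn, and in the genotype models only mice of batch 2. Mice with PBS eyes alone were not left out. This gave 5 to 6 members for IL1A+TNF against PBS in batch 1, 3 to 4 for IL1A, 1 to 4 for IL1A+TNF against IL1A, 5 to 5 against TNF and 1 to 1 beyond the sum. It gave 4 to 7 within Sarm1-/- mice, 6 to 6 in WT mice of both batches, 1 to 2 in those of batch 2, 1 to 1 between genotypes after PBS, 1 to 3 after IL1A+TNF, 0 to 2 for genotype by treatment, and 0 to 0 for TNF at each day. Without mouse 61924 or mouse 61926 the last 2 genotype counts dropped to 1 and 0.

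Cd38 had as few as 19 counts in a retina, so its levels at days 14 and 35 are the least precise of the members.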
